A study of Mus musculus with 8 samples.

Results

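Fibrillar collagens are the rope-like proteins that give connective tissue its strength, and the genes for their chains were followed here across the cell clusters of white preadipocytes turning into brown-like fat cells. The gene set held Col1a1, Col1a2, Col3a1, Col5a1, Col5a2, Col5a3 and Col11a1. It was defined by gene name, and 7 of 7 genes had at least 1 entry, with 49 of the 13337 entries in a table of cluster markers that covers 3903 gene symbols and 12 clusters numbered 0 to 11.

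The cells came from the inguinal fat of C57BL/6 mice aged 8 to 12 weeks, either wild type (WT) or carrying Hmgn1-/- and Hmgn2-/- (DKO), and thus lacking both HMGN1 and HMGN2, proteins that bind nucleosomes. They were cultured on collagen-coated plates and sampled as preadipocytes (day 0) and at day 6 of differentiation in medium with insulin, dexamethasone, IBMX, T3 and rosiglitazone, then insulin and T3. There were 8 samples in 4 groups of 2, WT and DKO at each day, each replicate captured on its own lane. All cells were pooled before clustering and the table gives neither samples nor genotypes nor days apart. DKO and WT, and day 6 and day 0, could therefore not be compared, and no value below has a replicate, an SD or a test.

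Chains of a fibrillar collagen fold together into a long helix inside the endoplasmic reticulum, leave the cell as procollagen, lose their end pieces outside it and line up into cross-linked fibrils. Type I collagen, built from the products of Col1a1 and Col1a2, makes up most of the fibril mass in many tissues. Type III, from Col3a1, is common in soft and stretchable tissue, while types V and XI are minor chains that help fibrils start and limit their width. Fibroblasts and fat cell precursors are known to secrete these proteins, and the matrix around fat cells is remodelled as they fill with lipid.

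The value given for a gene is its detection, the percent of cells in which at least 1 of its molecules was counted, inside a cluster and in all cells outside it, as the authors deposited it. A gene has an entry for a cluster only where it passed the minimums of the authors' comparison, and where the entry is missing the gene may still have been detected. Detection near 100% cannot rise further, and a difference in the amount of RNA per cell is then not visible in it. The depth and the number of cells are unknown, so no counting interval is given, and the fractions are rounded to 0.1 percentage points. Free RNA in droplets can add detection to cells that do not make a transcript. Its level was not measured, because immune, glial and endothelial cells were removed before clustering and their 6, 4 and 4 marker genes had 0 entries.

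The genes lie apart in the mouse genome, apart from a pair. On mm10, Col1a1 is on chromosome 11 from 94936224 to 94953042 (plus strand), Col1a2 on chromosome 6 from 4504814 to 4541544 (plus), Col5a1 on chromosome 2 from 27886425 to 28039514 (plus), Col5a3 on chromosome 9 from 20770050 to 20815067 (minus) and Col11a1 on chromosome 3 from 114030540 to 114220718 (plus). Col3a1, at 45311538 to 45349706 on the plus strand of chromosome 1, and Col5a2, at 45374321 to 45503282 on its minus strand, point their ends at each other across 24614 bases. All 7 are annotated as protein-coding.

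The promoters of Col1a2 and Col5a3 are shown because their detection went different ways in clusters 0 and 1, where Col1a2 was above the other cells and Col5a3 below them, and that of Col3a1 because it was the most widely detected. RefSeq promoters (GRCm38.p6) were found for 5 of the 7 genes. Each run is the 250 bases before the annotated start, 5′ to 3′ on the gene's strand. Capitals mark the CCAAT box, the TATAAA letters of a TATA box and the GC-rich GGGCGG, searched on both strands, with no overlap between matches.
Col1a2 (chr6:4505368-4505617, plus strand): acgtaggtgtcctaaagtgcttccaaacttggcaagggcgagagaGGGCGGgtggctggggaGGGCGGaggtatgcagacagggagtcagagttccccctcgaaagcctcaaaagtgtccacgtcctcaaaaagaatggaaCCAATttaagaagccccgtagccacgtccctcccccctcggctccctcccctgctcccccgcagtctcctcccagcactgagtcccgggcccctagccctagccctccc
Col5a3 (chr9:20815068-20815317, minus strand): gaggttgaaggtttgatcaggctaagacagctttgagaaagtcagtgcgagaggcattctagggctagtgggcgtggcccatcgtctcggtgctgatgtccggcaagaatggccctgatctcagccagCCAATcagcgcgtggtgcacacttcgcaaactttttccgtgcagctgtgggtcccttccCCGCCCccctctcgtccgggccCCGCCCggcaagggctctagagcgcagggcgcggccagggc
Col3a1 (chr1:45311288-45311537, plus strand): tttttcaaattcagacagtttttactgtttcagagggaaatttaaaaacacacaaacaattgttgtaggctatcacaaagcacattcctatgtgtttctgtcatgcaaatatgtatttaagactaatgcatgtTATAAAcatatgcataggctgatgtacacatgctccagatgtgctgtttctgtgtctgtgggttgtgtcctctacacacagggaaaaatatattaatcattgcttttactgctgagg

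Col1a2 and Col5a3 held the same set of these letters, 1 CCAAT and 2 GGGCGG each, as did Col11a1, although they differed in where they were detected. Col3a1 held 1 TATAAA and neither of the others. The Col1a2 window lies inside the longer gene span of the annotation used for coordinates. Of 32851 promoter windows of this length, 33.8% held CCAAT, 32.7% GGGCGG and 12.4% TATAAA, so these matches are common and are given as a description.

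Over all cells, most fibrillar collagen genes were detected nearly everywhere and a few were not. Solved from the fractions and the cluster shares, detection was 98.6% for Col3a1, 96.1% for Col1a1, 94.4% for Col1a2 and 92.0% for Col5a2. It was 82.6% for Col5a1, 37.8% for Col5a3 and 25.02% for Col11a1. The values from the clusters of a gene differed by at most 0.092 percentage points, which is less than each gap in this order. Detection depends on transcript capture as well as on expression, so the order is not a ranking of RNA levels.

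Of the 49 entries, 25 had higher detection inside the cluster than outside and 24 lower. Over all genes of the table, 45.9% of entries were lower, so the count of signs was near that of the whole table. With a difference of at least 5 percentage points, 12 entries were higher and 20 lower. The higher entries of Col1a1 and Col3a1 had no room for such a rise, with at least 95.5% detection outside. The share of lower entries over all genes was 21.5% for cluster 0, 27.2% for cluster 1, 50.6% for cluster 2, 32.8% for cluster 3, 97.9% for cluster 4 and 13.8% for cluster 5. It was 25.2% for cluster 6, 16.3% for cluster 7, 57.5% for cluster 8, 7.36% for cluster 9, 99.9% for cluster 10 and 40.5% for cluster 11. Counts of genes in a cluster are read against these shares.

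**Figure D1:**
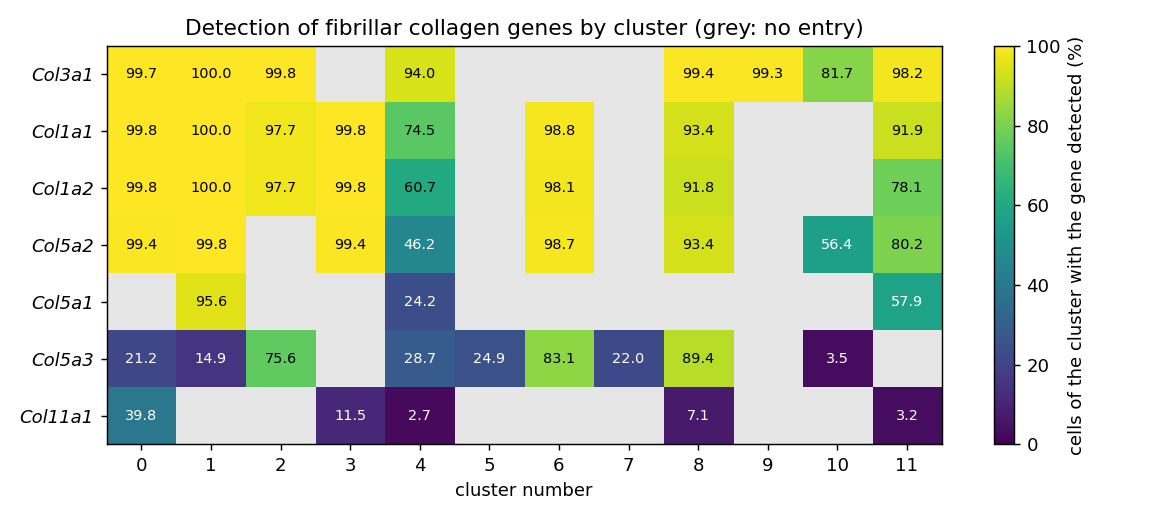
Percent of the cells of each cluster in which each fibrillar collagen gene was detected (colour and printed value); genes are in order of detection over all cells, and grey marks a missing entry. Where listed, Col1a1, Col1a2, Col3a1 and Col5a2 sit between 91.8% and 100% outside clusters 4, 10 and 11. Among the clusters with an entry, Col5a3 is highest in clusters 2, 6 and 8 and Col11a1 in cluster 0.

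Type I collagen genes were detected in almost every cell of most clusters and least often in cluster 4. Col1a1, the gene of the major chain, was found in 99.8% of cluster 0 cells, 100% of cluster 1, 97.7% of cluster 2, 99.8% of cluster 3 and 98.8% of cluster 6. It reached 93.4% in cluster 8, 91.9% in cluster 11 and 74.5% in cluster 4. Against detection of 95.5% to 98.4% outside these clusters, the cells of cluster 4 stood 23.9 percentage points lower, those of cluster 11 4.3 lower and those of cluster 8 2.9 lower. Clusters 5, 7, 9 and 10 had no entry, and the mean over their cells was solved as 98.0%, with 0.36 percentage points either way from rounding.

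Col1a2, the gene of the partner chain, followed the same order with deeper lows. Its detection equalled that of Col1a1 in clusters 0, 1, 2 and 3, at 99.8%, 100%, 97.7% and 99.8%. Cells with it were 98.1% of cluster 6, 91.8% of cluster 8, 78.1% of cluster 11 and 60.7% of cluster 4. In clusters 4 and 11, Col1a1 was detected in 13.8 percentage points more cells than Col1a2, a gap that was at most 1.6 in the other 6 clusters listing both. From these percents alone, at least 99.6% of the cells of cluster 0 held both transcripts, while in cluster 4 the share with both lay between 35.2% and 60.7%.

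The cells without type I transcripts were concentrated. Cluster 4 held 9.59% of all cells, 63.1% of the cells without Col1a1 and 67.5% of those without Col1a2. Cluster 8, with 5.92% of all cells, held 10.1% of the cells without Col1a1 and 8.7% of those without Col1a2. Clusters 0 and 1 together held 28.5% of all cells and 0.74% of the cells without Col1a1.

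Col3a1, the type III gene, varied least over its listed clusters. Cells with it made up 99.7% of cluster 0, 100% of cluster 1, 99.8% of cluster 2, 99.4% of cluster 8, 99.3% of cluster 9 and 98.2% of cluster 11. Only clusters 4 and 10, of the 8 with an entry, were under 98%, with 94.0% and 81.7%. Cluster 10, which held 3.22% of the cells, contained 42.8% of the cells without Col3a1, and cluster 4 contained 41.9%.

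Col3a1 was detected in fewer cells of cluster 10 than of cluster 4, and limits could be set for the type I genes in cluster 10. If Col1a1 were detected in every cell of clusters 5, 7 and 9, its detection in cluster 10 would still have been at least 84.5%, or 81.8% with all rounding taken against it. The same lower limits for Col1a2 were 83.6% and 80.9%. With rounding, these limits do not set the order of the type I genes and Col3a1 (81.7%) in cluster 10. In cluster 4, Col3a1 was in 94.0% of the cells and Col1a1 and Col1a2 were in 74.5% and 60.7%.

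Of the type V genes, Col5a1 and Col5a2 were on the same side of the other cells in clusters 1, 4 and 11. In cluster 1, Col5a3 was on the opposite side. Col5a1, whose chain is found in most forms of type V collagen, had entries for clusters 1, 4 and 11 only. Of these its detection was highest in cluster 1, with 95.6% of cells against 80.4% elsewhere. Values were 57.9% in cluster 11 against 83.0%, and 24.2% in cluster 4 against 88.8%. Its detection in cluster 4 was 64.6 percentage points lower, the largest difference of any of the 49 entries. The 9 clusters without an entry, with 74.7% of the cells, had a mean of 88.1%.

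Col5a2, the usual partner of Col5a1, was detected in at least 93.4% of the cells of 5 of its 8 listed clusters and in fewer cells of clusters 4, 10 and 11. Cells with Col5a2 made up 99.4% of cluster 0, 99.8% of cluster 1, 99.4% of cluster 3, 98.7% of cluster 6 and 93.4% of cluster 8. The low values were 80.2% of cluster 11, 56.4% of cluster 10 and 46.2% of cluster 4, against 92.2%, 93.2% and 96.9% outside these. Cluster 4 held 64.9% of the cells without Col5a2. Its genomic neighbour Col3a1 stayed detected in 94.0% of the cells of that cluster, a gap of 47.8 percentage points between the neighbours, while in cluster 1 the gap was 0.2.

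Col5a3, the gene of a further type V chain with a narrower tissue range, had a pattern of its own within the gene set. In cluster 8 its detection was 89.4%, in cluster 6 it was 83.1% and in cluster 2 it was 75.6%, against 34.6%, 34.2% and 32.6% outside these clusters. It was seen in 28.7% of cluster 4, 24.9% of cluster 5, 22.0% of cluster 7, 21.2% of cluster 0, 14.9% of cluster 1 and 3.5% of cluster 10. The 3 high clusters thus stood apart from the other 6, of which none passed 28.7%. The study used Col5a3 as a marker of differentiating adipocytes on these cells, so its place in the clusters is not independent evidence of their type.

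Clusters 2, 6 and 8 held 25.5% of all cells and 54.6% of the cells with Col5a3. Detection was 81.0% over these 3 clusters and 23.0% over the other 9. Clusters 0 and 1, where Col1a1, Col1a2, Col3a1 and Col5a2 were each detected in at least 99.4% of the cells, held 13.6% of the cells with Col5a3. For clusters 3, 9 and 11, which had no entry, the mean was 31.0% with 0.51 percentage points either way from rounding.

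**Figure D2:**
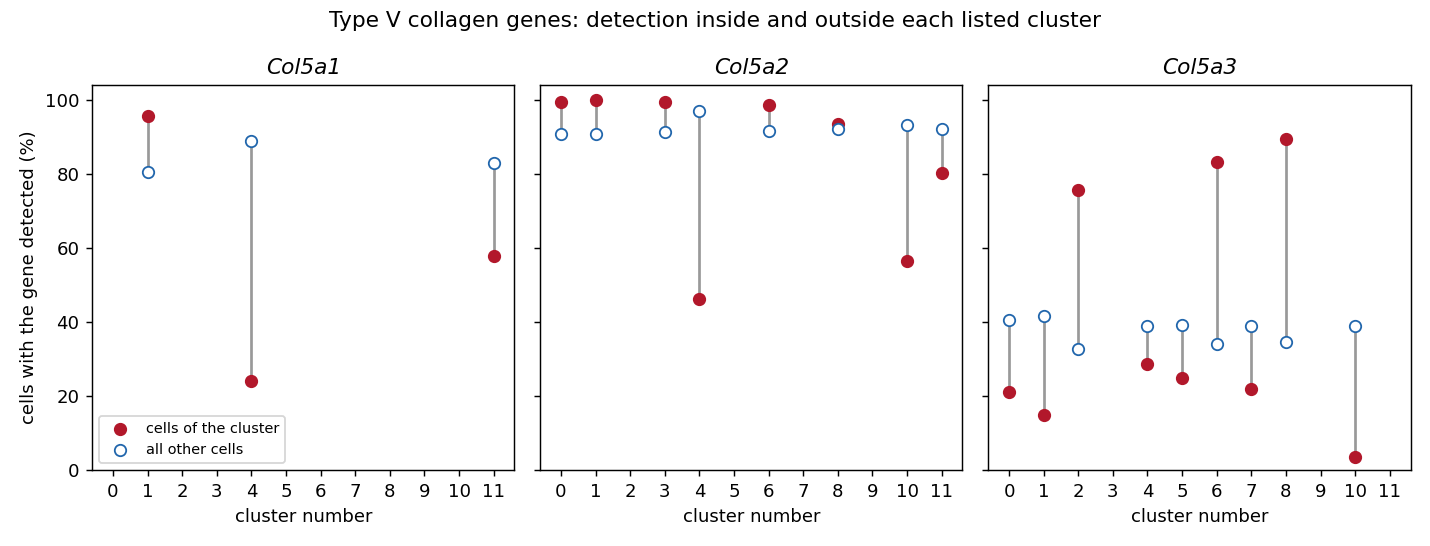
Percent of cells with Col5a1, Col5a2 and Col5a3 detected (vertical axis) in each cluster with an entry (horizontal axis), filled points for the cluster and open points for all other cells, joined by a line. Col5a3 is above the other cells only in clusters 2, 6 and 8 of its 9 entries, where it reaches 75.6%, 83.1% and 89.4%, and Col5a2 is below them only in clusters 4, 10 and 11 of its 8.

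Col5a2 and Col5a3 were on different sides of the other cells in clusters 0 and 1 and on the same side in clusters 4, 6, 8 and 10. In cluster 1, both could be detected in at most 14.9% of the cells, since Col5a3 was in no more. In cluster 8, both were present in at least 82.8% and at most 89.4% of the cells, and in cluster 6 in at least 81.8% and at most 83.1%. Detection of both chains therefore differed between cluster 1 and clusters 6 and 8 however the transcripts were spread over single cells.

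Adipocyte genes were detected in more cells than elsewhere in the clusters with high Col5a3, and contractile genes were seldom detected there. Of 10 adipocyte genes (Fabp4, Adipoq, Plin1 and others), the 5 listed in cluster 2, the 5 in cluster 6 and the 8 in cluster 8 were all detected in more cells than elsewhere, with median differences of 29.5, 37.0 and 33.7 percentage points. In cluster 0 all 8 listed were detected in fewer cells, and in cluster 1, 8 of 9. Over all genes, 50.6%, 25.2% and 57.5% of the entries of clusters 2, 6 and 8 were lower. For clusters 0 and 1 these shares were 21.5% and 27.2%. Of 7 smooth muscle and pericyte genes, the 3 with entries (Acta2, Tagln and Cnn1) were detected in fewer cells in clusters 2, 6 and 8, where none exceeded 23.2% of cells. All 8 cycling genes were detected in more cells of cluster 6, by a median of 57.8 percentage points, and 0 of those listed in clusters 2 and 8. Over clusters 0, 1, 2, 6 and 8, most adipocyte markers listed went the same way as Col5a3. The contractile markers listed went the opposite way. The part of either set of markers in the result was not tested.

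A cluster with still more adipocyte detection did not list Col5a3. In cluster 11 all 10 adipocyte genes were detected in more cells, by a median of 72.0 percentage points. Of all entries of cluster 11, 40.5% were lower. Col5a3 had no entry there, so its detection in cluster 11 is not known. Cluster 4 listed all 10 as well, 7 in more cells, where 97.9% of all entries were lower. It had Col5a3 in 28.7% of cells against 38.8% outside.

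The same division of signs as for Col5a3 was looked for in other genes after its values had been seen. Of 207 genes listed in clusters 0, 1, 2, 6 and 8, 26 (12.6%) were detected in more cells in clusters 2, 6 and 8 and in fewer in clusters 0 and 1. They included Fabp4, Cd36, Plin1 and Car3, which serve fatty acid binding, fatty acid uptake, the lipid droplet coat and carbonic anhydrase activity, and Vcan, a large matrix proteoglycan. They also included Hmgb2 and Hist1h1b, which are chromatin proteins, and the mitochondrial transcripts mt-Atp8 and mt-Nd6. Col5a3 was the only collagen gene among the 26, and 3 of the 7 fibrillar genes were listed in all 5 of these clusters.

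**Figure D3:**
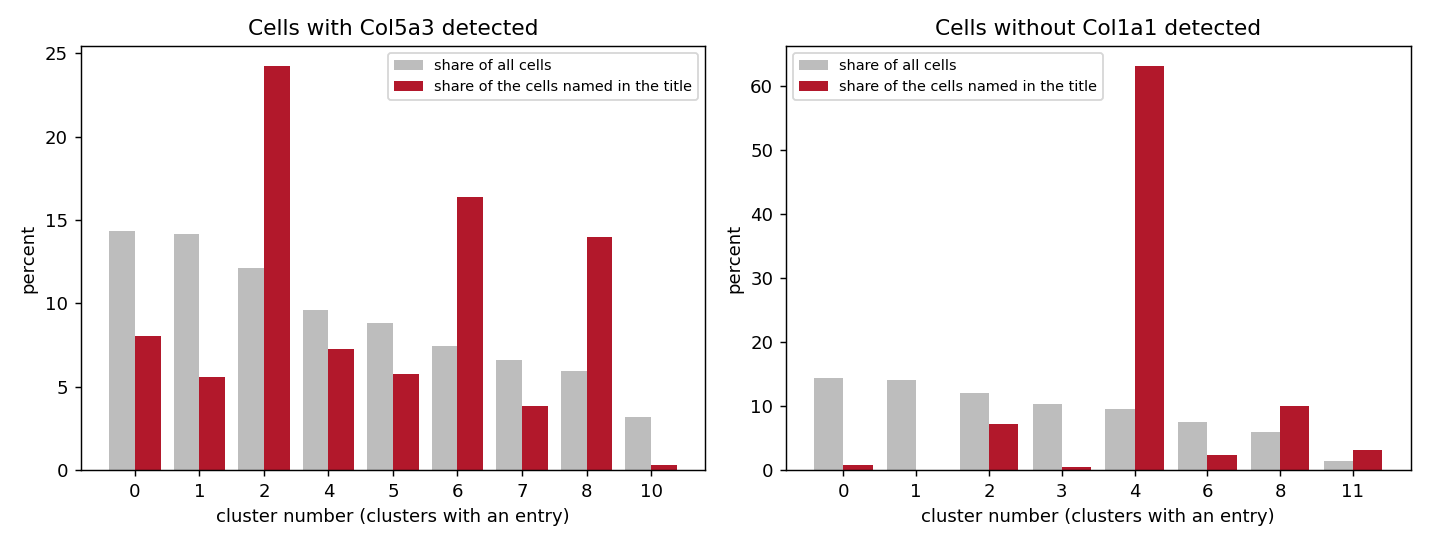
Share of all cells (grey bars) and share of the cells with Col5a3 detected (left) or without Col1a1 detected (right) that lay in each cluster with an entry, in percent. Clusters 2, 6 and 8 exceed their share of all cells on the left, with 54.6% together, and cluster 4 holds 63.1% on the right.

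Col11a1, the type XI gene, best known from cartilage, was the least detected. It was present in 39.8% of the cells of cluster 0 against 22.5% elsewhere. It was present in 11.5% of cluster 3, 7.1% of cluster 8, 3.2% of cluster 11 and 2.7% of cluster 4, against 25.4% to 27.4% outside these clusters. Cluster 0 held 14.3% of all cells and 22.8% of the cells with Col11a1. The 7 clusters without an entry, which hold 58.1% of the cells, had a mean of 29.9%. In cluster 3, Col1a1, Col1a2 and Col5a2 were each in at least 99.4% of the cells. For Col11a1 that cluster was 15.1 percentage points under the rest, so Col11a1 did not follow those genes there.

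In clusters 0 and 1 most of the gene set was detected in more cells than elsewhere, as were most entries of all genes. Of 6 fibrillar genes listed in each, 5 were detected in more cells than elsewhere and 1, Col5a3, in fewer. Over all genes, 21.5% of the entries of cluster 0 and 27.2% of those of cluster 1 were lower. The members' median difference was 5.3 percentage points in cluster 0 and 5.5 in cluster 1, against 17.1 and 16.0 over all entries. Col1a1, Col1a2, Col3a1 and Col5a2 were already detected in at least 90.8% of the cells outside these clusters. Cluster 3 had the same detection as cluster 0 for Col1a1 and Col1a2 (99.8%) and for Col5a2 (99.4%). Cluster 8 was mixed, with 3 of 6 lower (Col1a1, Col1a2 and Col11a1) beside 57.5% of all its entries.

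Cluster 4 listed 7 of 7 fibrillar genes, all detected in fewer cells, but so were 97.9% of its entries. The median entry of cluster 4 was detected in 10.8% of its cells against 63.0% outside. Set against this, Col3a1 kept 0.95 of its outside detection in cluster 4, Col1a1 0.76, Col5a3 0.74, Col1a2 0.62, Col5a2 0.48 and Col5a1 0.27, where the median over all entries was 0.17. Col11a1 was under that median, at 0.099. Apart from Col5a3, the kept share followed the order of detection over all cells, and the part of that level in it was not tested. In cluster 10, with a median of 0.14 over all entries, Col3a1 kept 0.82 and Col5a2 0.61, and Col5a3 only 0.090.

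Cluster 11 differed in that most genes were not low there. In cluster 11, 6 of 6 fibrillar genes listed were detected in fewer cells, whereas 40.5% of all its entries were. Their median difference was -14.3 percentage points, against 6.6 over all entries. Of outside detection, Col3a1 kept 0.996, Col1a1 0.96, Col5a2 0.87, Col1a2 0.82, Col5a1 0.70 and Col11a1 0.13, where the median over all entries was 1.09. For each of these genes but Col11a1, 26.3% to 40.2% of all entries kept less. For Col11a1, 4.1% of all entries did. Outside the cluster, Col1a1, Col1a2, Col3a1 and Col5a2 were detected in at least 92.2% of cells, against 48.7% for the median entry. These genes therefore had little room to be higher. Col5a1 was 25.1 percentage points lower, Col11a1 22.2, Col1a2 16.6, Col5a2 12, Col1a1 4.3 and Col3a1 0.4. Even so, Col3a1 and Col1a1 were detected in 98.2% and 91.9% of the cells of a cluster in which the adipocyte genes listed were found in at least 89.9% of cells. Whether those transcripts were made by the cells or carried over as free RNA was not tested.

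**Figure D4:**
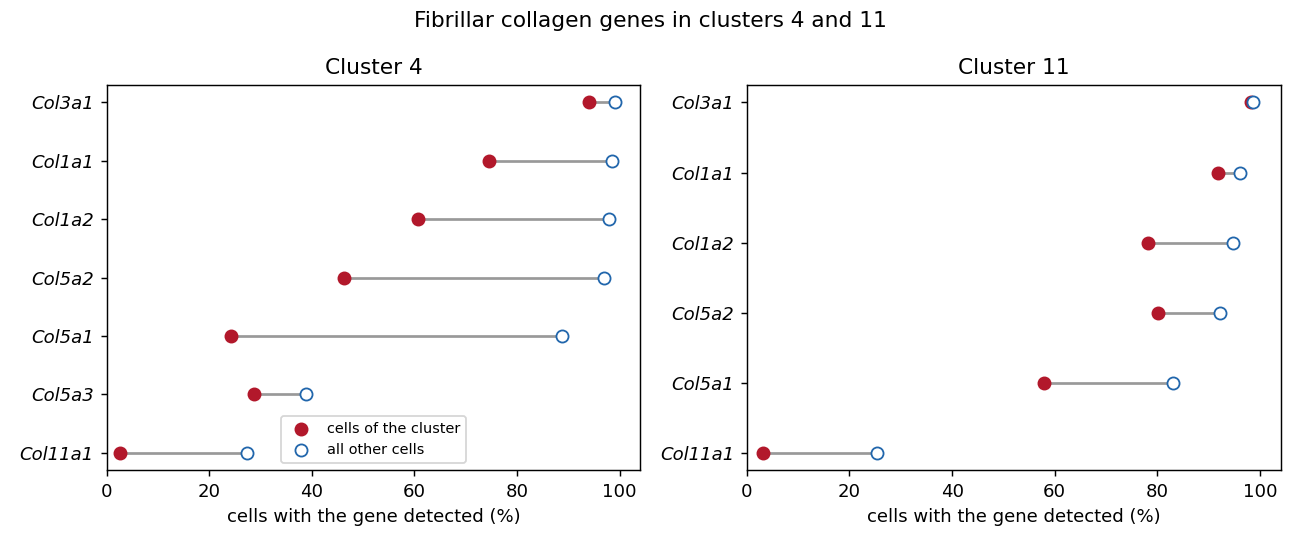
Percent of cells with each fibrillar collagen gene detected (horizontal axis) in clusters 4 and 11 (filled points) and in all other cells (open points), joined by lines. Every point of both clusters lies left of its partner, by 5.1 to 64.6 percentage points in cluster 4 and by 0.4 to 25.1 in cluster 11.

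Of 18 genes that fold and modify collagen chains, 16 had entries. All those listed were detected in more cells in clusters 0 (2 genes), 1 (5), 2 (6), 3 (3), 5 (2), 7 (4) and 9 (3), and in fewer in cluster 4 (14) and cluster 10 (3). Most of these counts were small and lay on the side of most entries of the cluster, with 97.9% of entries lower in cluster 4 and 99.9% in cluster 10. In cluster 2, where 50.6% of entries were lower, 0 of 6 were. In cluster 11, 11 of 16 were detected in fewer cells and 5 in more, beside 40.5% of all entries lower. Serpinh1, the chaperone of procollagen, was detected in 99.6% of cluster 0, 99.8% of cluster 1, 89.7% of cluster 11 and 35.6% of cluster 4. In cluster 4, the prolyl hydroxylase subunit gene P4ha1 was detected in 21.1% of cells against 91.4% elsewhere, Colgalt1, which adds galactose to collagen, in 11% against 81.5%, and the lysyl hydroxylase Plod3 in 9.4% against 76.9%. P4ha2, another prolyl hydroxylase subunit, was in 13.0% of cluster 10 against 78.7%.

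Of 8 genes of propeptide cleavage, which act on procollagen outside the cell, 4 had entries. Pcolce, which enhances the removal of the C-terminal piece, was detected in 98.3% of cluster 1, 96.9% of cluster 3, 97.5% of cluster 7, 58.1% of cluster 11 and 14.3% of cluster 4. Adamts2, which removes the N-terminal piece, was in 8.6% of cluster 4 against 72.8%, and Bmp1, the C-terminal protease, in 38.3% of cluster 11 against 69.4%. Pcolce2 was in 25.1% of cluster 1 against 7.4%.

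Among cross-linking enzymes, 4 of 5 lysyl oxidase genes had entries, 7 higher and 13 lower, where 45.9% of all entries of the 12 clusters were lower. Of the 13, 4 were in cluster 4, 2 in cluster 10 and 4 in cluster 11. In these clusters 97.9%, 99.9% and 40.5% of all entries were lower. Lox was detected in 98.7% of cluster 2 and 64.7% of cluster 4. Loxl1 was in 18.5% of cluster 4 against 88.2%, and Loxl2 in 10.2% of cluster 10 against 71.0%. Loxl3 was in 68.0% of cluster 9, 60.3% of cluster 5 and 51.6% of cluster 0, and in 6.6% of cluster 8, 1.4% of cluster 11 and 1.3% of cluster 4.

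Of 14 genes of proteins that bind fibrils, 13 had entries. All 10 listed in cluster 1 were detected in more cells, where 27.2% of all entries were lower. In cluster 4 all 11 were detected in fewer cells, as were 97.9% of all entries, and in cluster 11, 10 of 11 were, beside 40.5%. In cluster 4, Aebp1 was in 27.8% of cells against 91.3%, Postn in 22.7% against 86.2%, Thbs2 in 23.6% against 83.8% and Dpt in 8.8% against 63.6%.

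Of 8 receptor and uptake genes, 6 had entries, 11 higher and 13 lower, where 45.9% of all entries were lower. Of the 13, 4 were in cluster 4, 1 in cluster 10 and 4 in cluster 11. Itgb1, a subunit of the collagen-binding integrins, was in 19.6% of cluster 4 against 93.7%. Mrc2, which takes up collagen fragments, was in 5.7% of cluster 4 against 63.9%, Itga11 in 3.1% of cluster 4 against 32.6%, and Ddr2, a collagen-binding kinase, in 38.1% of cluster 11 against 68.8%. Of 8 genes that degrade collagen or inhibit its degradation, 6 had entries, the proteases Ctsk, Mmp2 and Mmp14 and the inhibitors Timp1, Timp2 and Timp3. All listed were detected in more cells of clusters 0 (3 genes), 1 (5), 3 (4) and 5 (4), where 21.5%, 27.2%, 32.8% and 13.8% of all entries were lower. All listed were detected in fewer cells of clusters 4 (6), 8 (4), 10 (3) and 11 (6), where 97.9%, 57.5%, 99.9% and 40.5% of all entries were. In cluster 2, Mmp2 was in 79.8% of cells against 69.6%, while Ctsk was in 41.6% against 61.1% and Timp2 in 60.4% against 79.3%. Timp2, an inhibitor of matrix metalloproteinases, was in 7.4% of cluster 4 against 84.4%. Mmp14 was in 14.3% of cluster 4 against 84.6%, Ctsk, a collagen-degrading protease, in 5.0% against 64.5%, and Mmp2 in 22.2% against 76.0%. Timp3, chosen after its values were seen, was in 94.3% of cluster 1 and in 14.1%, 13.7% and 5.2% of clusters 2, 6 and 8.

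Of the 4 other fibrillar collagen genes looked up, 1 had entries. Col27a1 was found in 35.5% of cluster 2 and 9.5% of other cells, and in 6.6% of cluster 4 and 13.3% of other cells.

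The genes most like each member were named by Pearson's r of detection over the clusters listing both, at least 6, as a description. They were the 3 highest of 404 to 512 genes compared per member, so their r was high by selection. The points share libraries and depth, and the lowest value of each member lay in cluster 4 or 10. Col5a3 still ranged from 14.9% to 89.4% over its other clusters with an entry. For Col1a1 these were Tceal9 (r = 0.994 over 6 clusters), Tmsb10 (0.993 over 7) and Akr1a1 (0.989 over 6), and for Col1a2 Timp1 (0.9989 over 6), Fn1 (0.9986 over 6) and Cald1 (0.996 over 7). For Col3a1 they were Bgn, mt-Co2 and Fth1 (0.996 to 0.997), for Col5a2 Gng5, Nfix and Pcolce (0.993 to 1.00), and for Col5a3 Fgf10, Prg4 and Apln (0.992 to 0.996).

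With clusters 4 and 10 left out, 107 to 278 genes were compared per member. The lowest remaining value of Col1a1, Col1a2, Col3a1 and Col5a2 lay in cluster 11, at 78.1% for Col1a2 and 80.2% for Col5a2. The part of this 1 cluster in r was not tested. Without clusters 4 and 10, Col1a2 was most like Col5a2 (r = 0.998 over 6 clusters), Rcn3 (0.997 over 6) and Serpinh1 (0.990 over 7). Col5a2 was most like Serpinh1 (1.00), Col1a2 (0.998) and Sparc (0.993), each over 6 clusters. Col3a1 was most like Cald1 (0.907), Serpinh1 (0.895) and Tpm4 (0.870), and Col1a1 like Tmsb10 (0.986), Basp1 (0.980) and Ctsl (0.978). Col5a3 was most like Cd36, Btg1 and Zbtb16 (0.996 to 0.997).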

How the data were processed

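Single-cell RNA was measured in 8 samples, grouped by the titles of the samples. Per the study's methods, reads were mapped to mm10 with Cell Ranger (6.0.0 in the submitters' processing notes), the captures were aggregated with normalization for read depth, cells with under 500 genes or over 10% mitochondrial reads were removed, cells were log-normalized in Seurat v4, clustered at a resolution of 0.6 and each cluster was compared with all remaining cells by MAST. The removal of doublets is not described, and they were not looked for. The table has no single cells.

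The authors deposited, per gene and cluster, the fraction of a cluster's cells in which the transcript was found and the fraction of all other cells, and these fractions were used here as percents. The table also holds the authors' own fold changes and p-values per cluster, which were not used. Depth per sample is unknown, and 0 columns with values per sample were left unused.

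Cluster shares were solved by least squares from the 10 genes listed for every cluster (Python 3.11.15, numpy 2.4.6, pandas 2.3.3, scipy 1.17.1, figures with matplotlib 3.10.9), and summed to 99.9%. The method was tested on simulated data with known shares. Detection over all cells, recomputed from each cluster, spread by at most 0.13 percentage points over 2687 genes. The mean over clusters without an entry is what remains of it after the listed clusters. Of each list of genes, up to 4 with the largest absolute difference were named, and the 3 genes most like a member. Among the collagen-related lists, values of Serpinh1 and Timp3 were given outside this rule. The members and lists were chosen with earlier results of these data known. No test was run.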

Additional observations from a re-analysis of the deposited data

How the results depend on the processing

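No paired analysis was possible because samples were merged before the values were made. With shares solved from every gene that 2 or more clusters list, or rescaled to sum to 100%, detection over all cells moved by at most 0.0055 percentage points and detection over clusters without an entry by at most 0.053, for all 7 genes.

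The 25 entries detected in more cells than elsewhere became 12 with a difference of at least 5 percentage points. The 24 detected in fewer became 20. Where Col1a1 and Col3a1 were higher, they were already detected in at least 95.5% of cells outside, so no such rise was possible. The cause of the other changes was not tested. The 24 lower entries became 14 without clusters 4 and 10. The cluster with the highest detection over the rest was kept by all 7 genes on the log2 odds scale and without clusters 4 and 10. The cluster with the lowest changed for all 7 without these clusters, to cluster 1 for Col5a3 and cluster 11 for the other 6, by construction. Of the 3 genes most like a member, 1 was kept for Col1a1 and 0 for Col1a2, Col3a1, Col5a2 and Col5a3 without these clusters. The number of cells and reads is unknown, so the effect of depth was not measured.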
